A study of Drosophila melanogaster with 2 samples.

Results

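The genes described here are the tarsal-less (tal) peptide entries, the transcription factor gene ovo (also called shavenbaby), and 3 genes for the actin hairs of epidermal cells, sha, f and sn. The list names 8 genes: tal-1A, tal-2A, tal-3A, tal-AA, ovo, sha, f and sn. Of these, 6 had a row in the table analysed, out of 13989 genes in all, and they came from 5 loci. tal-2A and tal-3A were not analysed here. The members were chosen by gene name, with the FPKM values of both genotypes already known, so every value below is a description and none carries a test of its own.

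RNA was sequenced from wing discs, the larval epithelia that give rise to the adult wing, of wandering third-instar Drosophila melanogaster larvae sorted for GFP fluorescence. The GFP_Tai library came from larvae that expressed Taiman (Tai), a coactivator of the ecdysone receptor, together with GFP under the engrailed driver (en>GFP,Tai). The GFP library came from larvae with the same driver and GFP alone (en>GFP). Each library was made from 80 to 100 discs pooled per genotype, and each genotype has 1 value per gene, so no difference has a replicate check. The series design mentions triplicates, but no replicate values were analysed here. Depth, estimated from the smallest values in the table, was 10.6 M fragments (M for mega) in GFP_Tai and 8.09 M in GFP, and all intervals given here cover counting error only. The engrailed driver is active in posterior cells, whereas the discs were taken whole. Anterior cells without the driver therefore contribute to every value, and a change in the number of cells of a type cannot be told apart from a change in RNA per cell.

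By way of background, tal is an unusual gene whose transcript carries several very short open reading frames in place of a long one. The peptides they encode act on Shavenbaby, the epidermal product of the ovo locus. Full-length Shavenbaby represses its targets, and in response to Tal peptides the ubiquitin ligase Ubr3 and the proteasome trim it to an activator. The activator turns on genes for epidermal hairs (trichomes), among them genes for actin bundling and for the apical matrix, and in embryos ecdysone times the expression of tal. Wing hairs themselves form in the pupa, after the stage sampled here.

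The tal transcript is laid out as follows in the BDGP6 annotation. All 4 tal entries (FBgn0259730, FBgn0259731, FBgn0259732 and FBgn0259733) share the interval 3R:13813109-13814648 on the plus strand, as 1 exon of 1540 nt. The first reading frame, tal-1A, occupies nt 418 to 453 and encodes 11 residues. Frames tal-2A (nt 531 to 566) and tal-3A (nt 638 to 673) also encode 11 residues each. The last, tal-AA, spans nt 763 to 861 and encodes 32 residues. The gaps between neighbouring frames measure 77, 71 and 89 nt. With their stop codons the frames fill 207 nt, or 13.4% of the transcript. Since the annotated exons are identical, no fragment can be assigned to 1 entry rather than another. Values of tal-1A and tal-AA are therefore also summed, but this sum covers 2 of the 4 entries, and fragments given to tal-2A or tal-3A would be missing from it.

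**Figure D1:**
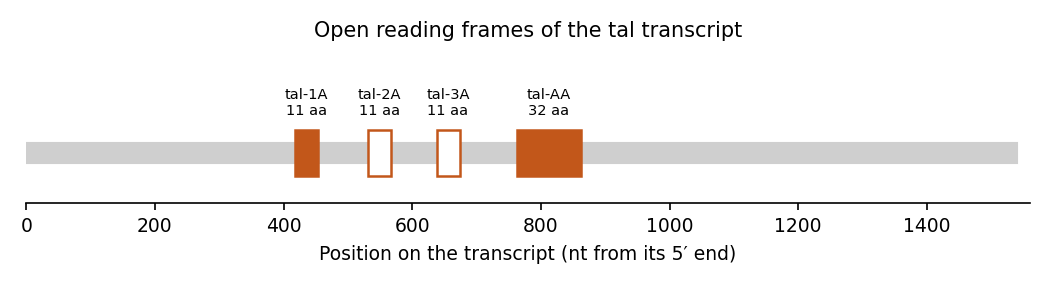
Position of the 4 open reading frames on the 1540 nt tal transcript, in nt from its 5′ end, with the peptide length in amino acids (aa). Filled boxes are entries with values here (tal-1A and tal-AA), open boxes are tal-2A and tal-3A, and the frames lie between nt 418 and 861.

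The tal entries had much higher values in discs with Tai. Summed over tal-1A and tal-AA, a partial sum for the locus, the value was 235 FPKM in the GFP_Tai library, against 17.9 FPKM in the GFP library (FPKM is a level scaled to transcript length and to library depth). The plain ratio of GFP_Tai to GFP was 13.1, with a 95% counting interval of 11.3 to 15.2. It rested on an estimated 3303 fragments in GFP_Tai and 193 in GFP. On the log2(FPKM + 1) scale the summed difference was 3.64, the 91st largest among the 8275 genes that reached 1 FPKM in at least 1 library. The partial sum stood at percentile 95.1 of these genes by level in GFP_Tai and at percentile 39.5 in GFP. Among 3154 genes whose GFP level lay within 2-fold of that of tal, 4 had a higher ratio, and their median ratio was 0.984.

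The entries divided this sum unequally. tal-AA had 181 FPKM in GFP_Tai and 17.6 in GFP, a ratio of 10.3 (95% counting interval 8.90 to 12.0). tal-1A had 53.7 FPKM in GFP_Tai and 0.333 in GFP, where it corresponds to an estimated 4 fragments. Its ratio of 162 has a 95% counting interval of 56.2 to 532. tal-1A thus took 22.9% of the summed value in GFP_Tai and 1.86% in GFP. Both entries have the same annotated exon, so these shares reflect how fragments were divided between identical transcripts and do not show that the reading frames were used differently. The counting intervals of both ratios leave this division out, so they understate what is uncertain for each entry.

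Shavenbaby itself, by contrast, differed little at the RNA level. The ovo gene (FBgn0003028, X:5048273-5070929, plus strand) encodes a zinc-finger transcription factor with epidermal and germline forms. It had 53.0 FPKM in GFP_Tai and 41.3 FPKM in GFP. The ratio was 1.28 (95% counting interval 1.21 to 1.36) and the log2 difference 0.35, at rank 1227. Of 3281 genes with a like GFP level, 190 had a higher ratio. The annotation lists 5 ovo transcripts from 3 start sites. Those from the first start (ovo-RB and ovo-RE) encode 1351 residues, ovo-RC starts 15571 nt further on and encodes 1222, and ovo-RA and ovo-RD start 15960 nt from the first and encode 975 and 1028. The value per gene sums over these forms, so their separate levels were not measured. It also says nothing of how much Shavenbaby protein was trimmed.

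The germline form of ovo makes it relevant how much germline RNA the libraries held. Of 7 germline genes, 6 stayed below 1 FPKM in both libraries. Among these, vas, an RNA helicase gene, had 0.592 FPKM in GFP_Tai and 0.357 in GFP. The ovary gene otu had 0.0326 FPKM in GFP_Tai and 0.0426 in GFP, and bam had 0.158 in GFP_Tai and was listed at 0 in GFP. The seventh, the Argonaute gene piwi, had 2.97 FPKM in GFP_Tai and 0.690 in GFP. The whole list summed to 5.14 FPKM in GFP_Tai and 2.23 in GFP. This sum does not measure a germline share of the ovo value, which was not tested.

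The 3 hair genes differed from one another. Shavenoid, sha (FBgn0003382, 2R:11324314-11336463, plus strand), is needed for the outgrowth of actin-filled hairs. Its level was 2.28 FPKM in GFP_Tai and 0.0791 FPKM in GFP. The ratio of 28.8 is the highest of any member when the tal entries are summed, but its 95% counting interval runs from 9.93 to 96.9, since GFP held an estimated 4 fragments and GFP_Tai 136. On the log2(FPKM + 1) scale, which compresses low values, the difference was 1.60 (rank 321), and with a pseudocount of 5 it was 0.52. Of 742 genes with a like GFP level, 14 had a higher ratio. The interval that the deposited table gives for sha covers 6717 bp, against 12150 bp in the annotation used for transcript lengths, so these fragment estimates are approximate.

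Forked, f (FBgn0262111, X:17232942-17280964, plus strand), cross-links actin filaments in growing bristles and hairs. It had 1.88 FPKM in GFP_Tai and 0.958 FPKM in GFP. The ratio was 1.96, just under 2-fold, and the log2 difference 0.55 (rank 849). The 95% counting interval of the ratio, 0.996 to 4.02, included equal values when computed with the shortest of its 9 annotated transcripts (1850 nt, an estimated 33 fragments in GFP_Tai and 13 in GFP). With the longest (6422 nt) the same levels correspond to 123 and 48 fragments in GFP_Tai and GFP. The annotated forms differ widely, with proteins of 413 to 1918 residues, and the table does not separate them.

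Singed, sn (FBgn0003447, X:7964024-7986601, plus strand), encodes fascin, which packs actin filaments into tight bundles. It had 152 FPKM in GFP_Tai and 142 FPKM in GFP, a ratio of 1.07 (95% counting interval 1.01 to 1.12) and a log2 difference of 0.09 (rank 2773). It was thus abundant with or without Tai, at percentile 91.7 of the genes in GFP_Tai and 90.7 in GFP. All 4 annotated sn transcripts encode the same 512 residues. The interval deposited for sn covers 29267 bp, against 22578 bp in the annotation used for transcript lengths, so the counting interval of its ratio is approximate.

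**Figure D2:**
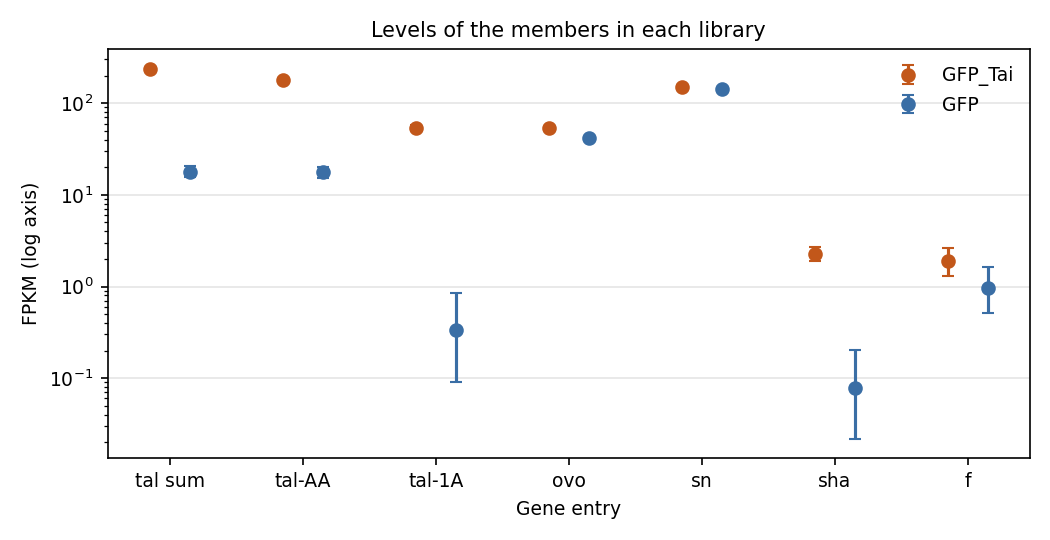
FPKM (log axis) of each member in GFP_Tai (orange, left of each pair) and GFP (blue, right), 1 value each. Bars are 95% Poisson intervals from the estimated fragments and cover counting error only. The tal and sha pairs lie far apart, the f intervals overlap, and ovo and sn sit close to equal values.

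The order of the levels changed between the libraries. In GFP_Tai the sum of tal-1A and tal-AA was highest at 235 FPKM, followed by sn (152), ovo (53.0), sha (2.28) and f (1.88). In GFP the order was sn (142), ovo (41.3), tal (17.9), f (0.958) and sha (0.0791). In GFP_Tai the counting intervals of sha (1.91 to 2.70 FPKM) and f (1.29 to 2.63 FPKM) overlapped, so their order there was not resolved. All other neighbours in either order had intervals apart from each other.

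Counted over all 6 members with values, 3 had a log2 difference of at least 1 (tal-1A, tal-AA and sha), and none had one of -1 or less. The count was 2 with a pseudocount of 5, where sha no longer reached 1, and also 2 at a minimum of 5 FPKM or a 4-fold threshold. Those 2 were the tal entries, which share 1 annotated exon and so are 1 locus counted as 2 members. The limits of 1 and -1, on the log2(FPKM + 1) scale, are the 2-fold threshold used throughout. Of all 8275 genes reaching 1 FPKM in either library, 6.31% exceeded their GFP level by 2-fold or more in GFP_Tai, and 1.81% fell short of it by as much. Since the members were picked with these values in view, nothing is read from that contrast. All 6 passed the minimum, but tal-1A, sha and f did so through GFP_Tai alone. In the authors' deposited table, none of the 6 was among the called genes, which made up 0.131% of the 8374 tested. In the authors' deposited table tal-AA had p = 0.0422, where 0.466% of tested genes had p under 0.05, and q = 0.999524. In the same deposited table of the authors, p was 0.1766 for tal-1A, 0.49205 for sha, 0.5008 for f, 0.6418 for ovo and 0.9063 for sn.

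**Figure D3:**
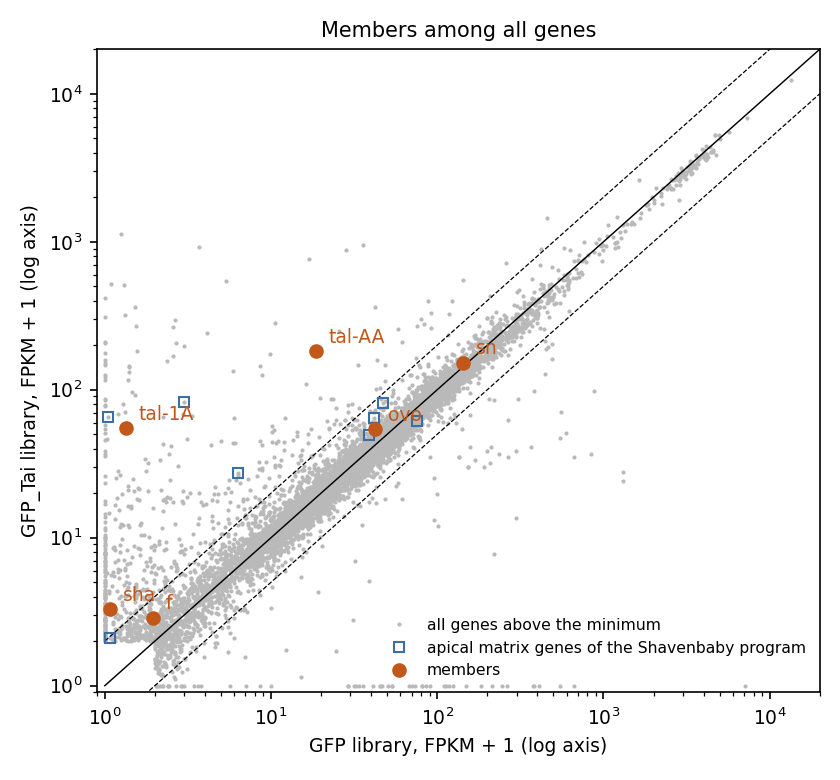
FPKM + 1 in GFP_Tai (vertical log axis) against GFP (horizontal log axis) for the 8275 genes above the minimum (grey), the members (orange) and the listed apical matrix genes (blue squares). The solid line marks equal values and the dashed lines 2-fold differences. tal-1A and tal-AA lie far above the upper dashed line, sn and ovo near the solid line.

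The genes most like each member were found from both levels together. By Euclidean distance in the plane of log2(FPKM + 1) over the 2 libraries, the nearest to the tal sum were CG15756 (250 FPKM in GFP_Tai and 24.7 in GFP, distance 0.45), the Tweedle cuticle gene TwdlE (281 and 9.58 in GFP_Tai and GFP, distance 0.88) and CG4115 (173 and 8.80 in GFP_Tai and GFP, distance 1.05). For sha the nearest gene above 0 in both libraries was the tetraspanin gene Tsp29Fb, with 2.19 FPKM in GFP_Tai and 0.136 in GFP (distance 0.09). CG34022 and CG10039, also near sha, had 2.28 and 2.22 FPKM in GFP_Tai and were listed at 0 in GFP. The neighbours of ovo (Gadd45, Tsp39D and Myo10A), of f (Ret, CG13403 and SerT) and of sn (Rad23, Ras85D and Vdup1) all lay within 0.05. Those of f had low values that were not near equal, such as Ret with 1.86 FPKM in GFP_Tai and 0.982 in GFP.

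A list of genes that act upstream of tal, between tal and Shavenbaby, or beside Shavenbaby held 1 gene past 2-fold, tai. Ubr3, listed under its older name CG42593, encodes the ubiquitin ligase that the Tal peptides engage. It had 29.0 FPKM in GFP_Tai and 33.5 in GFP (ratio 0.865, 95% counting interval 0.819 to 0.914). Ubc6, listed as UbcD6, encodes a ubiquitin-conjugating enzyme and had 84.4 FPKM in GFP_Tai and 71.6 in GFP. Of the ecdysone receptor genes, EcR had 43.2 FPKM in GFP_Tai and 35.2 in GFP, and usp had 34.8 in GFP_Tai and 36.2 in GFP. The Sox genes SoxN and D, which act beside Shavenbaby in the embryonic epidermis, were barely present, with 0.369 and 1.04 FPKM in GFP_Tai and 0.450 and 1.62 in GFP. The tai gene itself, where transgene and endogenous copy cannot be told apart, had 879 FPKM in GFP_Tai and 27.1 in GFP. Over the 6 genes of this list above the minimum the median log2 difference was 0.09, beside -0.02 over all genes, and without a minimum it was -0.06.

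Among 12 ecdysone pulse factors above the minimum, 2 passed 2-fold upward in GFP_Tai and 0 downward, beside 6.31% and 1.81% of all genes. The median was 0.10 on the log2 scale. The nuclear receptor genes ftz-f1 and Hr3 (listed as Hr46) were the 2 past 2-fold. ftz-f1 had 12.6 FPKM in GFP_Tai and 2.69 in GFP, and Hr3 had 34.9 in GFP_Tai and 14.0 in GFP. Next came Eip78C, with 38.2 FPKM in GFP_Tai and 27.3 in GFP, and Eip75B, with 62.7 in GFP_Tai and 48.4 in GFP.

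Targets of Shavenbaby in the apical matrix ranged from -0.30 to 5.96 in log2 difference, against 0.09 to 1.60 for sha, f and sn. Of 9 such genes, listed from work on embryonic trichomes and the wing, 8 passed the minimum. Of the 8, 7 had a log2 difference above 0 (median 0.87). At the 2-fold threshold 3 were higher in GFP_Tai and 0 lower, beside 6.31% and 1.81% of all genes above the minimum. The 3 were dyl, dy and m, which encode zona pellucida domain proteins that anchor the cell surface to the cuticle. Dusky-like, dyl, had 64.2 FPKM in GFP_Tai and 0.0496 in GFP, from an estimated 1683 fragments and 1 fragment. Its ratio of 1296 has a 95% counting interval of 231 to 50905. Dusky, dy, had 81.7 FPKM in GFP_Tai and 2.00 in GFP (ratio 40.8, interval 31.6 to 52.9), and miniature, m, had 26.2 in GFP_Tai and 5.35 in GFP (ratio 4.89, interval 4.09 to 5.90). In contrast, their relatives nyo, tyn and mey were already at 38.0 to 46.4 FPKM in GFP and reached ratios of 1.27 to 1.72. A further relative, neo, had 60.2 FPKM in GFP_Tai and 74.2 in GFP. The pigment gene y had 1.08 FPKM in GFP_Tai and 0.0676 in GFP, with an estimated 21 fragments and 1 fragment, and zye stayed under the minimum. None of dyl, dy and m was among the genes called in the authors' deposited table, which made up 0.131% of those tested. The authors' deposited p was 0.2384 for dyl, 0.25675 for dy and 0.1174 for m, with q = 0.999524 for each.

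The general actin machinery was close to level. Of 29 listed actin assembly genes with enough signal, 1 passed 2-fold upward in GFP_Tai and 0 downward, beside 6.31% and 1.81% of all genes. Of the 29, 28 lay within 1.5-fold, and the median log2 difference was 0.00. The exception was mwh (multiple wing hairs), which limits each wing cell to a single hair and is also counted in the hair placement list. It had 3.62 FPKM in GFP_Tai and 1.29 in GFP (ratio 2.80, 95% counting interval 1.91 to 4.19). Its log2 difference of 1.01 is just past the threshold. Fim, which encodes the bundling protein fimbrin, had 69.1 FPKM in GFP_Tai and 53.8 in GFP, and the filamin gene cher had 57.9 in GFP_Tai and 76.5 in GFP. Among the 10 hair placement genes, which belong to planar cell polarity, mwh was the 1 past 2-fold and the median was 0.05. The polarity effector fy had 26.5 FPKM in GFP_Tai and 20.3 in GFP, its partner in had 19.5 in GFP_Tai and 22.6 in GFP, and the receptor gene fz had 56.5 in GFP_Tai and 50.0 in GFP.

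**Figure D4:**
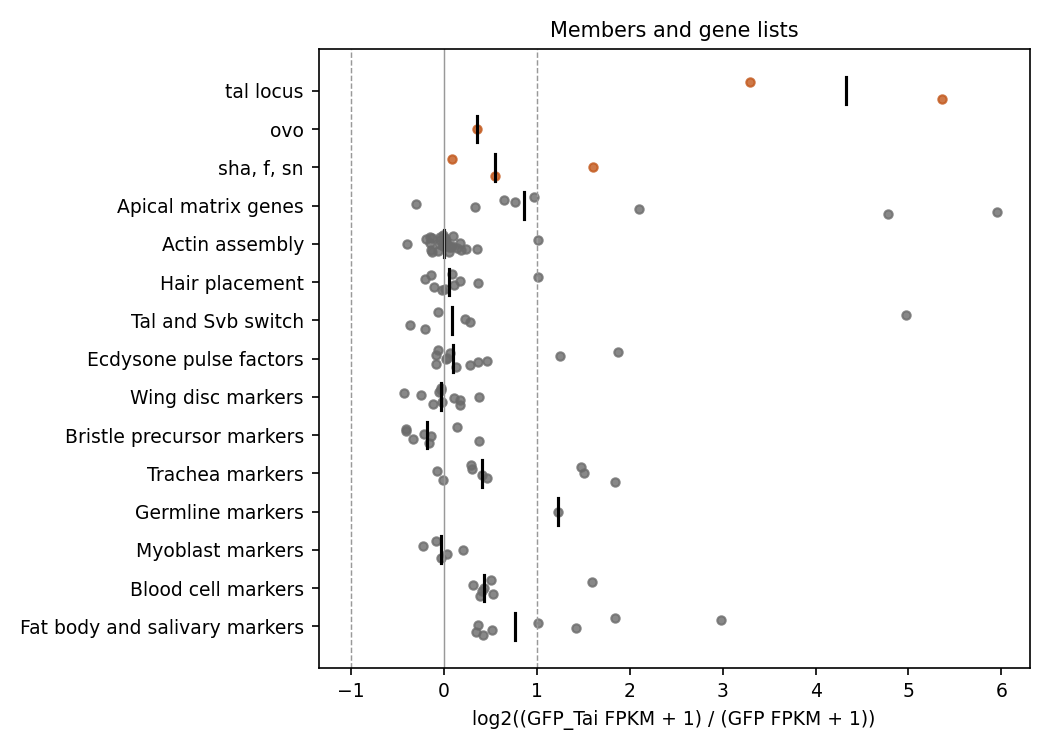
Difference of each gene above the minimum on the log2(FPKM + 1) scale, GFP_Tai over GFP (horizontal axis), by list. Orange points are members, grey points other listed genes, black bars list medians and dashed lines the 2-fold thresholds. Both tal entries and the matrix genes dyl, dy and m lie to the right, at 2.10 or more, while actin assembly genes cluster at 0.

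Markers of the disc and of other cells were compared because tal, f and sn are also used outside the wing epithelium. All 11 genes of the wing disc list lay within 1.5-fold on the log2(FPKM + 1) scale, with a median log2 difference of -0.03. Both libraries held clear disc expression (vg, for example, had 42.9 FPKM in GFP_Tai and 44.0 in GFP). The largest difference was that of rn, with 25.6 FPKM in GFP_Tai and 34.8 in GFP. It was followed by hh (52.2 in GFP_Tai and 39.8 in GFP) and nub (63.0 in GFP_Tai and 74.8 in GFP). The list includes Ubx, a Hox gene of the haltere rather than a wing marker, with 74.8 FPKM in GFP_Tai and 66.0 in GFP. Which tissue the Ubx RNA came from was not tested. Bristle precursor markers, relevant to f and sn, had 0 of 8 past 2-fold and a median of -0.19. Their summed level was 88.9 FPKM in GFP_Tai and 107 in GFP. In this list sens had 3.63 FPKM in GFP_Tai and 5.12 in GFP, and sc had 31.3 in GFP_Tai and 41.8 in GFP, whereas ase had 1.80 in GFP_Tai and 1.15 in GFP. The marker elav had 7.19 FPKM in GFP_Tai and 9.32 in GFP. The 5 myoblast markers had a median of -0.03 and 0 past 2-fold.

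Trachea, which uses tal to shape the ridges of its tubes, is attached to the disc. Of 9 genes listed as its markers, 3 passed 2-fold upward in GFP_Tai and 0 downward (median 0.41), beside 6.31% and 1.81% of all genes. The list summed to 1741 FPKM in GFP_Tai and 781 in GFP. It mixes regulators with chitin genes, so this sum does not measure the amount of tracheal RNA. The 3 past 2-fold were the chitin-binding and chitin deacetylase genes Gasp, serp and verm, with ratios of 3.61, 2.88 and 2.78. Next came the chitin synthase gene kkv (1.38), then knk (1.34), uif (1.23) and the regulator vvl (1.23). The regulators trh and btl had 20.2 and 3.45 FPKM in GFP_Tai and 21.3 and 3.47 in GFP, at ratios of 0.949 and 0.995. Blood cell markers had 1 of 7 past 2-fold (NimC1, listed as nimC1, with 3.66 FPKM in GFP_Tai and 0.539 in GFP), all 7 were above 0 in log2 difference, and the median was 0.43. Their summed level was 42.8 FPKM in GFP_Tai and 28.4 in GFP. Fat body and salivary gland markers had 4 of 8 past 2-fold (median 0.77) and summed to 41.0 FPKM in GFP_Tai and 19.3 in GFP. The 4 were Lsp1beta, with an estimated 127 fragments in GFP_Tai and 24 in GFP, and 3 genes with few fragments. These were Sgs3 (15 in GFP_Tai and 2 in GFP), and Sgs7 and Sgs8 (8 and 4 in GFP_Tai), both listed at 0 in GFP. The part of these other cells in the difference of tal or sha was not tested.

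Most genes around tal differed by less than 2-fold between the libraries, in either direction. Of 10 genes within 60 kb that reached the minimum, 2 passed 2-fold upward in GFP_Tai and 0 downward, beside 6.31% and 1.81% of all genes. On the log2 scale the median was 0.04, and differences below 2-fold ran from -0.49 (E5) to 0.83 (CG9312). The nearest listed gene on one side, Dip-B, ends 27.4 kb before tal and had 104 FPKM in GFP_Tai and 97.3 in GFP. On the other side, Mst87F begins 12.5 kb after it and had 1.08 FPKM in GFP_Tai and was listed at 0 in GFP. The other gene past 2-fold was Cht5, for a chitinase of the molt, 42.4 kb away, named after its values were seen. It had 146 FPKM in GFP_Tai and 47.3 in GFP. Around ovo, 0 of 2 genes above the minimum passed 2-fold, and CG32767, which lies 0.097 kb beyond its end, had 18.7 FPKM in GFP_Tai and 20.7 in GFP. Around sn it was 0 of 13.

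Around sha, 2 of 23 genes above the minimum passed 2-fold upward, beside 6.31% of all genes. The 2 were the trypsin genes alphaTry and deltaTry, listed at 0 in GFP and at 2.03 and 3.73 FPKM in GFP_Tai. The genes directly beside sha, Or47b and lambdaTry, were listed at 0 in both libraries. Around f, 3 of 10 passed, all listed at 0 in GFP. CG12998, 13.4 kb before f and named after its values were seen, had 50.1 FPKM in GFP_Tai, CG8664 had 6.25 and CG8661 had 3.38. CG8664 runs on the opposite strand, and its annotated exons share 47 nt with those of f. As strand use in counting is not given in the sources used here, fragments in that stretch could belong to either gene. For sn the corresponding overlap with sws, on the opposite strand, is 119 of 3507 exonic nt. sws had 16.0 FPKM in GFP_Tai and 14.8 in GFP, far below sn.

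**Figure D5:**
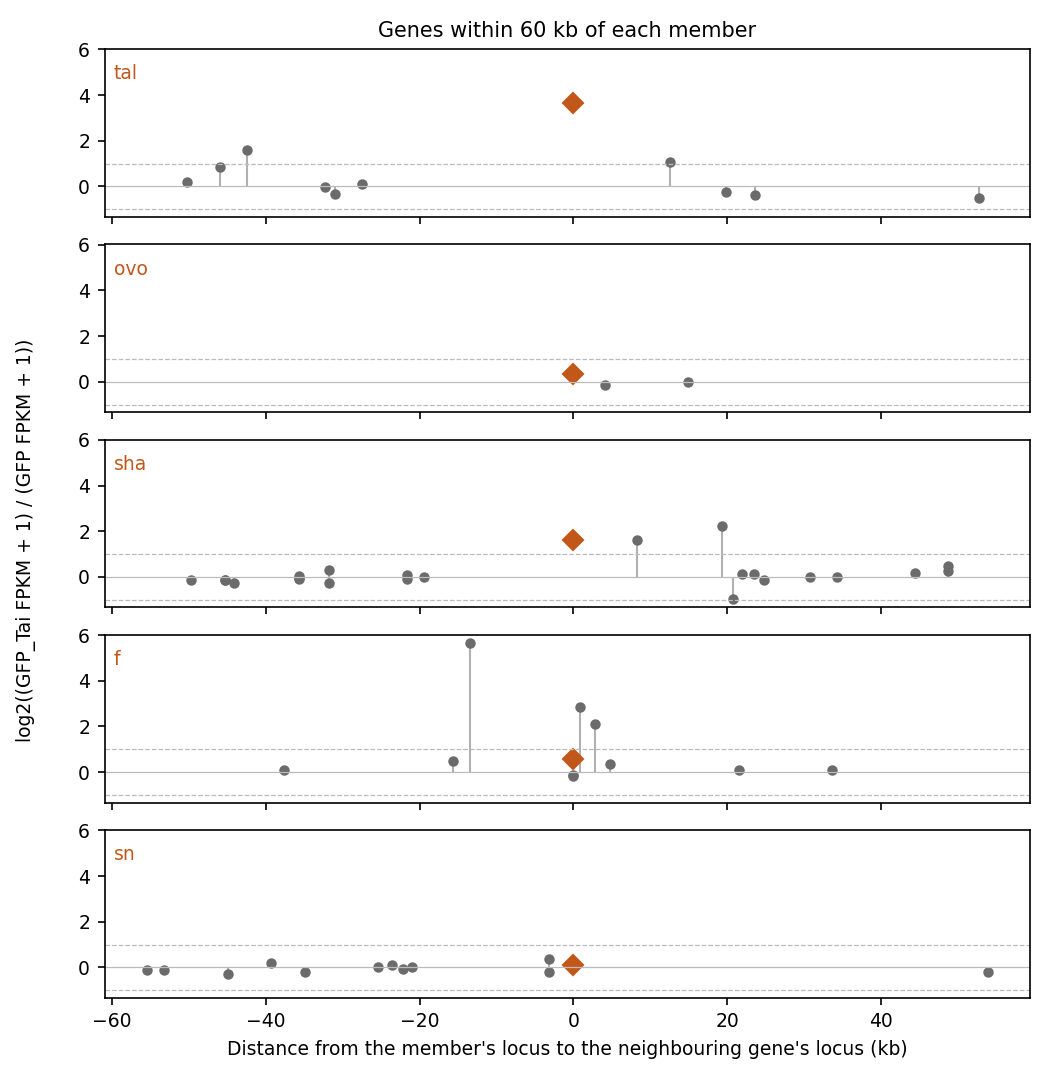
Difference on the log2(FPKM + 1) scale, GFP_Tai over GFP (vertical axis), of genes above the minimum within 60 kb of each member locus (grey), by distance in kb from that locus (negative is before it on the plus strand). Orange diamonds are the members, with tal summed, and dashed lines mark 2-fold. The tal diamond stands at 3.64, above all its neighbours, while f lies below 3 of its own.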

How the data were processed

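Wing discs of 2 genotypes, GFP_Tai and GFP, were grouped by the genotype label, with 1 sample each. RNA came from pooled discs and was depleted of ribosomal RNA before TruSeq library construction, per the labels' protocols. Listed without a role in the submitters' processing notes are Cuffdiff 2.2.1, TopHat2 2.0.12, CASAVA 1.4 and dm6. For the annotation and strand setting, the status is not given in the sources used here. Every gene has a single FPKM for each genotype in the authors' deposited table, in the Cuffdiff layout. Per the file headers, it also holds the authors' p-value and q-value. Triplicates are mentioned in the series design, and no replicate values were analysed here.

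The members and gene lists were chosen with earlier results of these data known. Differences are log2((GFP_Tai FPKM + 1) / (GFP FPKM + 1)), and genes needed 1 FPKM in either library. No test was made. Older symbols were matched through RefSeq synonyms. The table's intervals do not lie on dm6, so coordinates and transcript lengths come from the BDGP6 annotation (Ensembl 115), as do the distances of the genes directly beside a member. Distances of other genes within 60 kb come from the table. Named genes are the members, tai, their nearest neighbours on each side, up to 4 genes per list with the largest absolute difference, and the 3 genes nearest in pattern. Genes outside this rule were named after their values were seen.

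Depth was estimated from low values. The commonest ratio of GFP_Tai to GFP, 0.765 in 304 genes, was taken as equal fragments. With 210 nt off each transcript length, this gave 10.6 M fragments for GFP_Tai and 8.09 M for GFP. Of low single-transcript genes, 74.4% in GFP_Tai and 76.3% in GFP were then whole within 0.1, where chance gives 20%. Intervals are exact binomial or Poisson, use the shortest annotated transcript and cover counting error only. Python 3.11.15, NumPy 2.4.6, pandas 2.3.3 and SciPy 1.17.1 were used. The computations were tested on simulated data. Alternatives covered the pseudocount, the minimum, centring, the fold threshold, genes listed at 0 and the way of summing tal.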

Additional observations from a re-analysis of the deposited data

How the results depend on the processing

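Under the other settings, 22 results gave 118 further values, of which 99 stayed within their limits and 19 moved. No difference past 2-fold turned sign, but medians near 0 did: that of the tal and Shavenbaby list (0.09) was -0.06 without a minimum, and that of the actin genes (0.0023) was -0.0016 at a minimum of 5 FPKM. The summed tal difference (3.64) was 3.39 with a pseudocount of 5 and 3.29 with the highest single entry. With a pseudocount of 5, tal-1A had 3.46 and tal-AA 3.04. The sha difference (1.60) was 3.73 with a pseudocount of 0.1 and 0.52 with 5, so its 2-fold standing depends on that choice. The count of 3 members past 2-fold was 2, both of them tal entries, at a minimum of 5 FPKM, at 4-fold, or with a pseudocount of 5. Over all genes, the 522 higher became 284 once the pseudocount was 5, and the 150 lower became 97. Thresholds of 1.5-fold and 4-fold gave 813 and 240 higher, and 325 and 73 lower. Leaving out genes listed at 0 gave 96 lower. The germline median, which rests on piwi alone, was 1.96 and 0.49 with pseudocounts of 0.1 and 5, 1.26 after centring and 0.21 without a minimum. With a pseudocount of 5, the blood cell median (0.43) was 0.24 and that of fat body and salivary genes (0.77) 0.30. A pseudocount of 0.1 gave 0.66 and 1.47 for these, and 1.53 for the matrix targets (0.87). The median of all genes was -0.02, so centring moved no member past a threshold. With 1 value per gene for each genotype, replicates could not be left out in turn. Depth limits sha, tal-1A, dyl, y, Sgs3, Sgs7, Sgs8, bam and otu, each with 4 or fewer estimated fragments in GFP. It also limits other named genes listed at 0 in GFP, such as Mst87F, alphaTry and deltaTry, whose fragments were not estimated. For tal-1A the division of fragments between identical entries is a further limit.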
